A study of Arabidopsis thaliana with 12 samples.

Results

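The transcripts of 10 genes of gibberellin metabolism and signaling were followed among the 34262 genes of an RNA-seq count table from *Arabidopsis* seedlings. They were chosen by gene family and identifier: the 20-oxidases *GA20OX1* (AT4G25420) and *GA20OX2* (AT5G51810), the 3-oxidase *GA3OX1* (AT1G15550), the 2-oxidases *GA2OX1* (AT1G78440), *GA2OX2* (AT1G30040) and *GA2OX6* (AT1G02400), the receptors *GID1A* (AT3G05120) and *GID1B* (AT3G63010), and the DELLA genes *GAI* (AT1G14920) and *RGA* (AT2G01570). The choice was made with earlier results of these data known. All seedlings were 5 days past germination and spent 2 h in medium with Silwet, a wetting agent, and 25 µM dexamethasone (DEX) by the sample labels, although the study's methods give a lower DEX concentration. The 4 groups of 3 biological replicates were wild-type Col-0 in DEX, Col-0 in DEX and 1 µM trichostatin A (TSA), the WUS-GR line in DEX, and WUS-GR in DEX and TSA. TSA inhibits histone deacetylases, and the question put to these libraries was how much of the response to WUSCHEL (WUS) depends on them. WUS-GR carries pUBI10::mCherry-GR-linker-WUS as a single homozygous insertion: the *UBQ10* promoter, active in most tissues, drives WUS fused to the hormone-binding part of the glucocorticoid receptor, which DEX releases into the nucleus. Controls received DEX too, and mock-treated WUS-GR seedlings are not used here, so the contrast of WUS-GR with Col-0 takes in whatever else sets the lines apart. It is called the WUS effect for short.

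Gibberellins are growth hormones of shoots, roots and germinating seeds. 20-oxidases make their precursors in several steps, 3-oxidases carry out the last step to the active hormone, and 2-oxidases inactivate both precursors and hormone. The active hormone is bound by GID1, a soluble receptor that then takes hold of a DELLA protein, a nuclear repressor of growth, and the DELLA protein is degraded. Low gibberellin raises transcripts of 20-oxidases, 3-oxidases and GID1 receptors through DELLA proteins, which closes a feedback loop. In the shoot apex class I KNOX proteins keep gibberellin low around the meristem by repressing a 20-oxidase gene and raising 2-oxidase genes.

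The libraries held 14810658 to 21578662 counted reads, and replicates of a group differed by more than sampling noise. *WUS* itself, transgene reads included, had 27 to 52 counts in Col-0 and 94664 to 142276 counts in WUS-GR libraries, as their labels require. The tissue is labelled as whole seedling. All 5 photosynthesis genes of the shoot marker list were abundant, but 4 of 5 root marker genes (*TIP2;3*, *EXPA7*, *COBL9* and *RHD2*) had at most 7 counts in any library and only the beta-glucosidase gene *PYK10* gave a level, so the presence of roots is not shown by this list. The summed level of the root list, carried by *PYK10*, was 135 to 169 CPM in Col-0 in DEX, 336 to 381 CPM in WUS-GR in DEX, 249 to 356 CPM in Col-0 with TSA and 281 to 340 CPM in WUS-GR with TSA. The summed shoot list lay at 3571 to 4296, 3326 to 3916, 5438 to 6499 and 6735 to 6958 CPM in the same order, and the 4 seed storage genes had at most 3 counts in any library. The summed shoot list was higher with TSA in both genotypes, and among the TSA libraries those of WUS-GR lay above those of Col-0 without overlap. Its genes did not all share this last difference. *LHCB1.1* and *RCA* did, whereas *RBCS1A* and *LHCB2.1* overlapped between the genotypes with TSA. *GAPA* went the other way, with 1195 to 1326 CPM in the WUS-GR libraries with TSA against 1518 to 1862 CPM in those of Col-0. The root list was higher with TSA in Col-0, and in DEX alone WUS-GR lay above Col-0, while in WUS-GR its libraries with and without TSA overlapped. The part of tissue proportions in the results below was not tested. In such bulk samples fewer cells of a type and less RNA per cell cannot be told apart.

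Levels are CPM, counts scaled to one library size by TMM over the 12 libraries, and levels of different genes are compared only as CPM per kb of exon. Fold changes are log2 ratios from edgeR's quasi-likelihood test with its low-count filter, given with a standard error (SE) and a p adjusted by Benjamini-Hochberg over all genes tested. A gene is called at an adjusted p under 0.05. The p-values set the difference between groups against the spread of the 3 replicates within groups, which edgeR moderates over all genes. Where no library of a group had over 3 counts of a gene, it is taken as not detectable there; this limit covers counting error only.

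Per kb of exon, *GA2OX6* was the most abundant of the 10 transcripts in every group, at 51.4 ± 6.04 CPM per kb (SD, n = 3) in Col-0 in DEX, and its libraries overlapped those of no other member. In that group it was followed by *GID1B* (27.4), *RGA* (10.8), *GID1A* (6.72), *GAI* (3.95) and *GA2OX2* (3.72), all as mean CPM per kb, and of these only *GAI* and *GA2OX2* overlapped. Far below lay *GA20OX2* at 0.662 and *GA3OX1* at 0.356 CPM per kb, which overlapped each other, and *GA20OX1* and *GA2OX1* had no count at all. The 3 genes of hormone synthesis thus lay among the weakest transcripts, and a gene of hormone inactivation was the strongest.

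**Figure D1:**
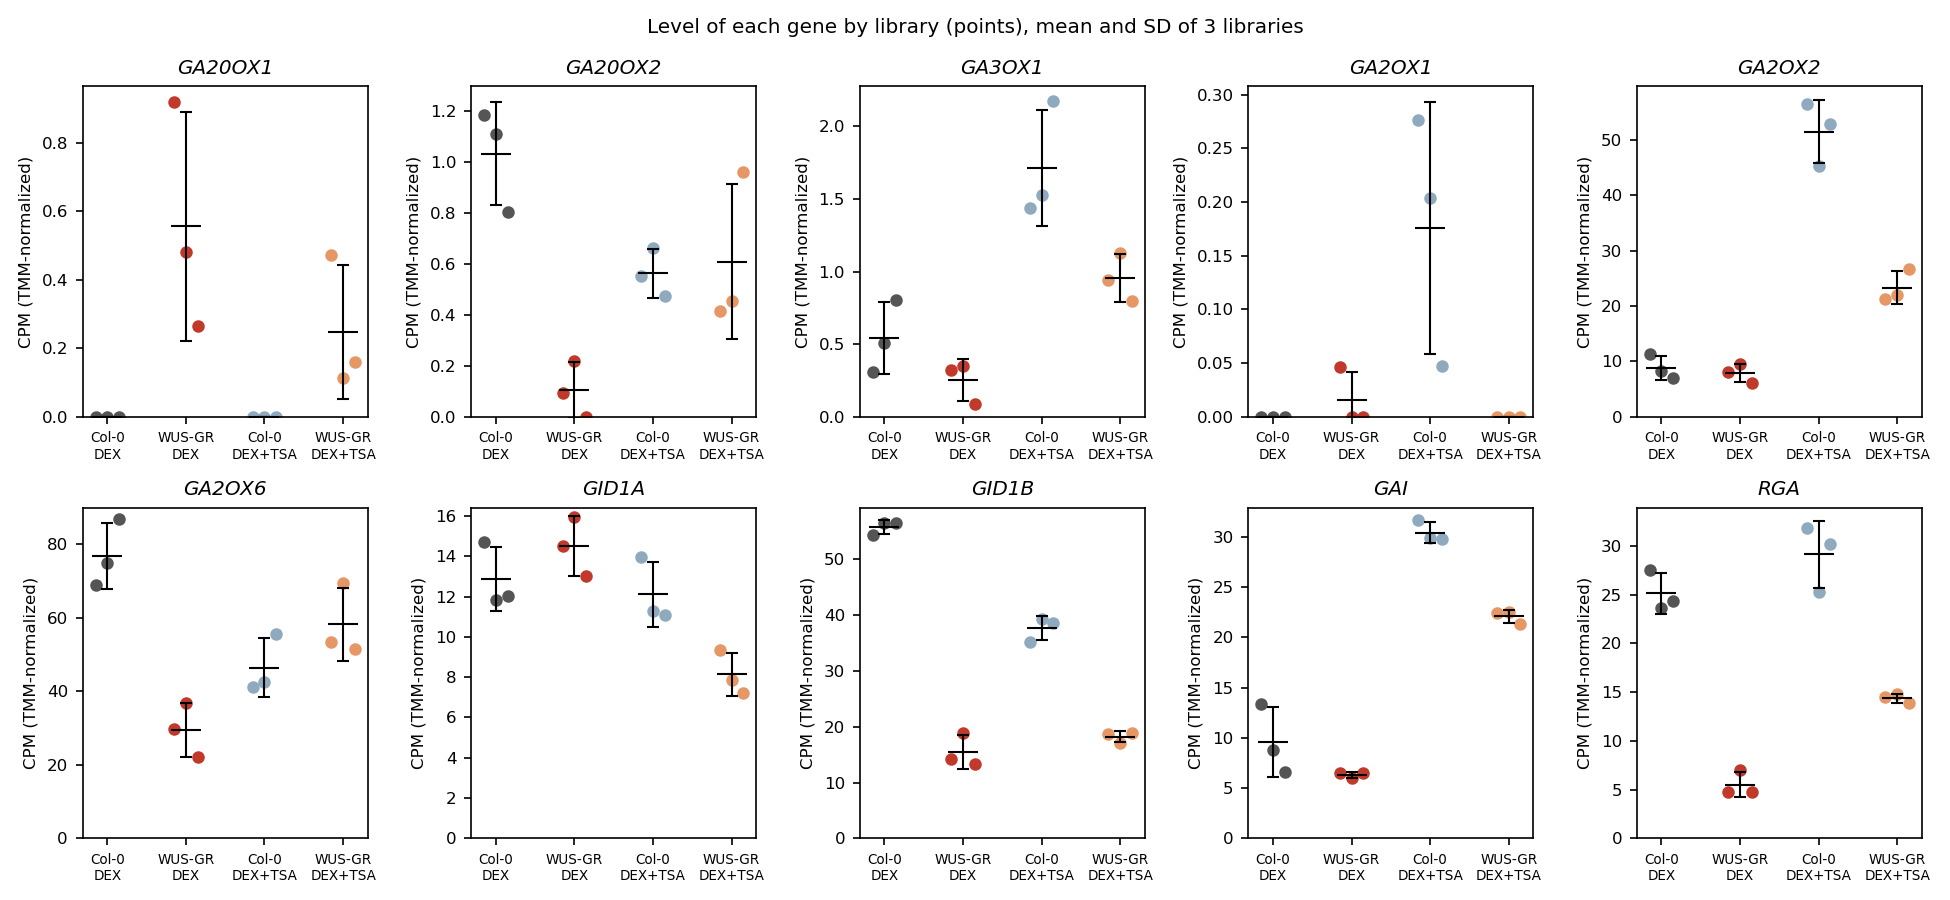
TMM-normalized CPM of the 10 genes, 1 panel per gene with its own linear axis from 0, in Col-0 and WUS-GR seedlings after DEX or DEX and TSA; points are libraries and bars the mean and SD of 3. *RGA* lies at 23.6 to 27.6 CPM in Col-0 and 4.73 to 6.97 CPM in WUS-GR without TSA, and *GA20OX1* is at 0 in all Col-0 libraries.

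Without TSA, no member was called higher in WUS-GR and 4 of the 7 tested were called lower: the DELLA gene *RGA*, the receptor gene *GID1B*, the 2-oxidase gene *GA2OX6* and the 20-oxidase gene *GA20OX2*. Over all 17285 genes tested, 57.9% were called, 29.3% higher and 28.6% lower, so a call as such was common in this comparison. The median log2 fold change of the 7 members was -1.36, beside 0.02 over all genes tested. Over the 29 tested genes of the rest of the pathway the median was -0.06. The members were chosen with earlier results of these data known, so their medians here and below are descriptions only. *GA20OX1*, which the filter left out, went the other way (log2 6.56 without the filter). The filter also left out *GA3OX1* (-1.09) and *GA2OX1* (1.82, on 1 count), so the members' median covers none of these. *GA20OX2* passed the filter through its Col-0 libraries only.

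With TSA in both genotypes, 6 of 8 members tested were called lower in WUS-GR and again none higher, beside 54.8% called among 16873 genes, 27.0% higher and 27.8% lower. Those called were *GA3OX1*, *GA2OX2*, *GID1A*, *GID1B*, *GAI* and *RGA*, and the median log2 fold change of the 8 was -0.71 against -0.01 over all genes. The change of the WUS effect with TSA, its log2 value with TSA minus that without, was called for 6 of 8 members, 4 upward and 2 downward. Among 17915 genes 31.0% were called for this difference, 17.7% upward and 13.3% downward.

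TSA calls were frequent among the members and among all genes alike. In Col-0, 6 of 8 tested were called, 3 higher and 3 lower, beside 64.2% of 17271 genes (31.7% higher and 32.5% lower). In WUS-GR, 6 of 7 were called, 5 higher and 1 lower, beside 73.7% of 17079 genes (35.6% higher and 38.1% lower). The 4 comparisons share libraries pairwise, so their values are given side by side. Scaling by library totals in place of TMM lowered the median of all genes by 0.23 for the WUS effect with TSA, by 0.38 for TSA in WUS-GR and by 0.33 for the difference of effects (log2). It moved the share of higher among all called genes from 49.2% to 28.3%, from 48.3% to 29.5% and from 57.1% to 21.5% in these 3, but none of the members called turned its sign or lost its call.

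**Figure D2:**
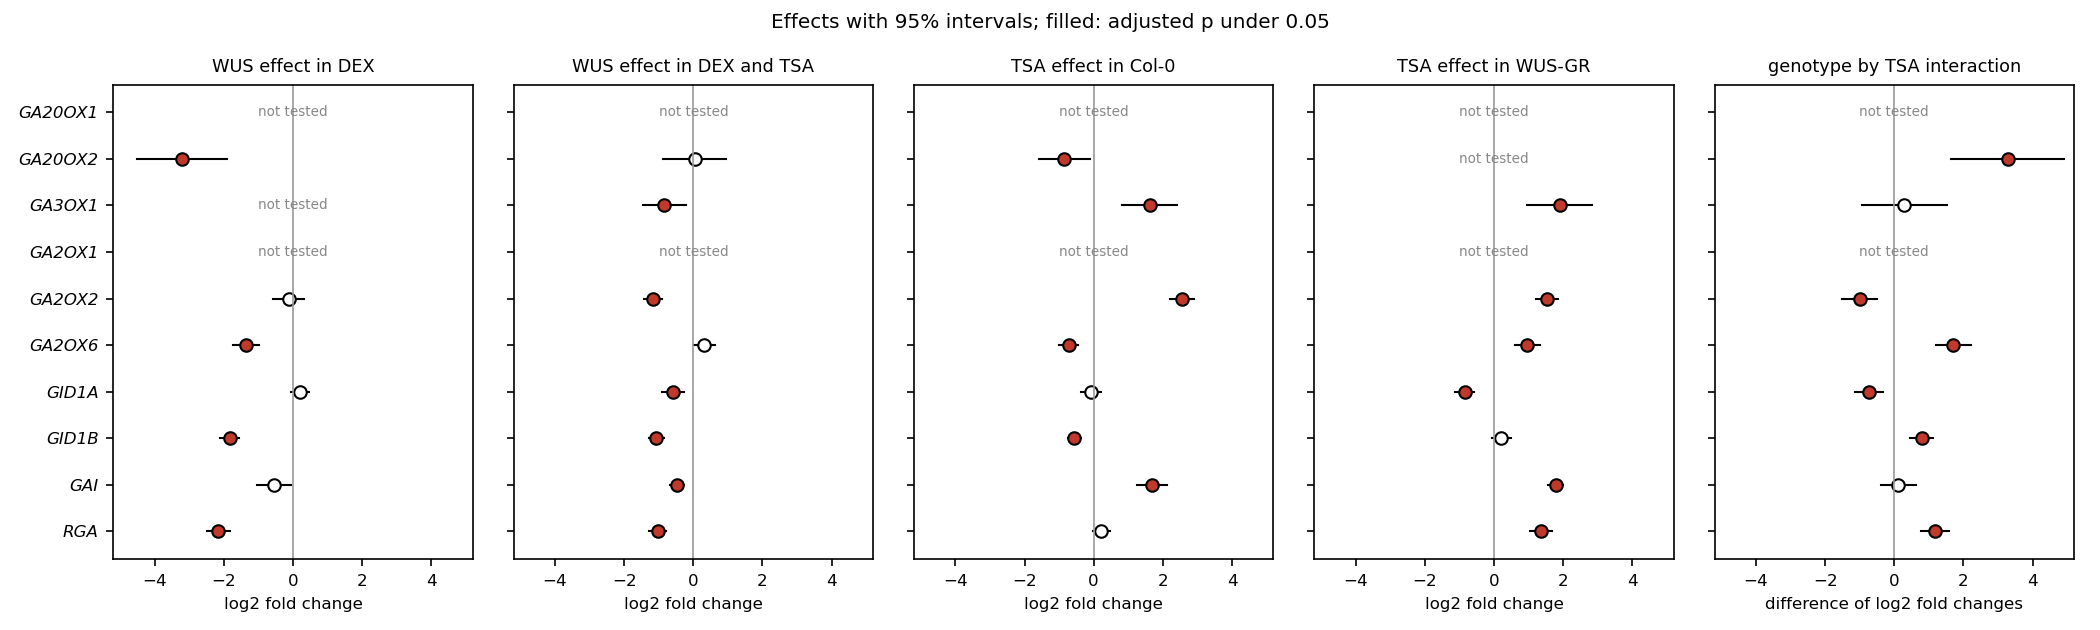
Log2 fold changes of the members (points) with 95% intervals (lines) in 4 comparisons, and the difference of the WUS effects with and without TSA in the last panel; filled points have an adjusted p under 0.05. All 4 filled points of the WUS effect in DEX lie between -3.20 and -1.36 and all 6 of the WUS effect in DEX and TSA between -1.16 and -0.47.

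*GA20OX1*, which codes for the 20-oxidase best known from stem elongation, was seen in WUS-GR seedlings only. It had 0 counts in each of the 6 Col-0 libraries, 20, 11 and 6 counts in WUS-GR in DEX, and 8, 2 and 2 counts in WUS-GR with TSA. Every WUS-GR library thus had reads and no Col-0 library had any. At 0.556 ± 0.333 CPM (SD, n = 3) its level in WUS-GR in DEX was at least 3.56-fold higher than the level that 3 counts per Col-0 library would give. The filter on low counts left it untested. Without that filter the same test gave an adjusted p of 8.74e-04 in DEX and 0.00643 in DEX and TSA, and DESeq2 gave 1.65e-04 and 0.0167. In WUS-GR the libraries with and without TSA overlapped (adjusted p = 0.134 without the filter).

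*GA20OX2*, a 20-oxidase gene of the same step, went the opposite way. Its counts were 19, 24 and 17 in Col-0 in DEX against 2, 5 and 0 in WUS-GR in DEX. With TSA they were 10, 13 and 10 in Col-0 and 7, 8 and 12 in WUS-GR. Without TSA all WUS-GR libraries lay below all Col-0 libraries, whereas with TSA the genotypes overlapped. The level fell from 1.03 ± 0.203 to 0.104 ± 0.110 CPM (SD, n = 3 each) without TSA, a log2 fold change of -3.20 (SE 0.58, adjusted p = 0.00104). This value rests on few reads: without WUS-GR DEX replicate 2 it was -4.31 and without WUS-GR DEX replicate 3 -2.64. With TSA the log2 fold change was 0.04 (95% interval -0.87 to 0.94, adjusted p = 0.948), and its sign turned in 3 of the alternative fits. The difference between the effects was 3.28 (SE 0.77, adjusted p = 0.00448), and 4.38 without WUS-GR DEX replicate 2.

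The TSA effect on *GA20OX2* in Col-0, a log2 fold change of -0.86 (SE 0.34), passed the threshold narrowly at an adjusted p of 0.0423. The call was lost when any of Col-0 DEX replicates 1 and 2 or Col-0 DEX TSA replicates 1, 2 and 3 was left out (log2 -1.002 to -0.73, adjusted p up to 0.131), without the filter (0.0741), with DESeq2 (0.171) and in 1 fit of all 12 libraries (0.0876). In WUS-GR every TSA library lay above every library without TSA. That comparison was left out by the filter, and without the filter its log2 fold change was 2.39 (SE 0.71, adjusted p = 0.00618). Within the pair, *GA20OX1* made up 0% of the summed level per kb in Col-0 and 69.0 to 100% in WUS-GR in DEX, and 14.4 to 53.6% in WUS-GR with TSA. Both genes together had few counts in each of these libraries.

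*GA3OX1* codes for the main 3-oxidase of vegetative tissue. It had 5, 11 and 17 counts in Col-0 in DEX and 7, 8 and 2 in WUS-GR in DEX, which overlapped and left it under the filter (without the filter: log2 -1.09, SE 0.56, adjusted p = 0.141). With TSA the counts were 26, 30 and 46 in Col-0 and 16, 20 and 10 in WUS-GR, and all WUS-GR libraries lay below all Col-0 libraries. TSA raised its level from 0.541 ± 0.247 to 1.71 ± 0.402 CPM in Col-0 (SD, n = 3 each), which is 1.63 on the log2 scale (SE 0.36, adjusted p = 0.00211). In WUS-GR TSA raised it from 0.254 ± 0.144 to 0.959 ± 0.166 CPM, a log2 fold change of 1.90 (SE 0.43, adjusted p = 0.00164). In both genotypes *GA3OX1* passed the filter through its libraries with TSA, where it was higher. The WUS effect with TSA was -0.83 (log2, SE 0.29, adjusted p = 0.0286). It was no longer called without Col-0 DEX TSA replicate 3 (-0.62, adjusted p = 0.121), without WUS-GR DEX TSA replicate 1 (-0.81, 0.0838) or 3 (-0.73, 0.0877), with DESeq2 (-0.83, 0.110) or in 1 fit of all 12 libraries (-0.82, 0.0590). The difference of the WUS effects was 0.29 with a 95% interval of -0.94 to 1.53, so a difference was not detectable at these counts.

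The 2-oxidases split. *GA2OX6*, the most abundant, had 69.1, 74.8 and 86.8 CPM in Col-0 in DEX and 29.9, 36.7 and 22.02 CPM in WUS-GR in DEX. With TSA it had 41.0, 42.5 and 55.6 CPM in Col-0 and 53.5, 69.6 and 51.6 CPM in WUS-GR. WUS-GR lay below Col-0 in every library without TSA, and the genotypes overlapped with TSA. The WUS effect was a 2.56-fold fall without TSA (log2 -1.36, SE 0.16, adjusted p = 7.36e-05) and a log2 fold change of 0.32 with TSA (SE 0.14, adjusted p = 0.0677). The latter was called without Col-0 DEX TSA replicate 3 (0.47, adjusted p = 0.0118), without WUS-GR DEX TSA replicate 3 (0.40, 0.0402), without the filter (0.33, 0.0272) and with DESeq2 (0.33, 0.0498). It shrank to 0.17 without WUS-GR DEX TSA replicate 2 (adjusted p = 0.304) and to 0.089 by library totals (0.588). The difference between both effects, 1.71 on the log2 scale, was the second largest among the members (SE 0.24, adjusted p = 7.63e-05).

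TSA moved *GA2OX6* in opposite directions in the genotypes. In Col-0 it fell by 0.72 (log2, SE 0.13, adjusted p = 4.71e-04), and in WUS-GR it rose by 0.96 (SE 0.17, adjusted p = 2.41e-04). Neither pair of groups overlapped. The 250 bases before its annotated start (chr1:486550-486799 of TAIR10.1, plus strand, from the RefSeq sequence) are shown because, among the 8 members whose windows were read, this window alone holds TTAATGG, a sequence bound by WUS. Capitals mark TTAATGG and every TAAT, the core that homeodomain proteins such as WUS bind, on either strand.
GA2OX6: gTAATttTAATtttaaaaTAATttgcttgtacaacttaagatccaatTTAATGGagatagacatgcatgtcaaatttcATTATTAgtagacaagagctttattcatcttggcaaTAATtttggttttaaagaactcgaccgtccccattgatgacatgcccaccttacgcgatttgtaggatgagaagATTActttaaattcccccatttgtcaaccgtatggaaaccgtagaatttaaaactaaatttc
TTAATGG or its reverse complement CCATTAA stood in 6.99% of 27443 protein-coding promoters of the same length, and TAAT in 97.6%. The window held 8 TAAT matches, 1 of them inside TTAATGG, where the median promoter held 5.

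*GA2OX2*, which KNOX proteins are known to raise at the meristem boundary, showed the largest response to TSA in Col-0 of the 8 members tested. Its level was 11.3, 8.19 and 7.08 CPM in Col-0 in DEX and 8.09, 9.56 and 6.19 CPM in WUS-GR in DEX. With TSA it was 56.5, 45.3 and 52.8 CPM in Col-0 and 21.3, 22.01 and 26.7 CPM in WUS-GR. All TSA libraries lay above all libraries without TSA, and with TSA all WUS-GR libraries lay below all Col-0 libraries. TSA raised it 5.90-fold in Col-0 (log2 2.56, SE 0.16, adjusted p = 1.43e-07) and 2.88-fold in WUS-GR (log2 1.53, SE 0.15, adjusted p = 1.52e-06). A WUS effect was not detectable without TSA (log2 -0.12, 95% interval -0.57 to 0.33, adjusted p = 0.632) and was a 2.23-fold fall with TSA (log2 -1.16, SE 0.12, adjusted p = 4.54e-06). The effects differed by -1.01 on the log2 scale (SE 0.24, adjusted p = 0.00489).

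Per kb, *GA2OX2* made up 6.88 ± 2.25% of the sum of *GA2OX2* and *GA2OX6* in Col-0 in DEX and 41.3 ± 4.60% in Col-0 with TSA, and 14.5 ± 0.482% and 20.4 ± 3.999% in WUS-GR without and with TSA (SD, n = 3 each). The summed level of the 3 2-oxidases was 55.1 ± 5.24 and 52.8 ± 6.02 CPM per kb in Col-0 without and with TSA, and 23.1 ± 5.63 and 48.7 ± 6.10 CPM per kb in WUS-GR. Only WUS-GR in DEX did not overlap the other 3 groups. *GA2OX1* was hardly detected, with 5, 4 and 1 counts in Col-0 with TSA, 1, 0 and 0 in WUS-GR in DEX, and 0 in the other 6 libraries, so the filter left it out of every comparison. Without the filter edgeR called it higher with TSA in Col-0 (adjusted p = 0.0208) and called a WUS effect downward with TSA (0.0313), on the few counts just given. DESeq2 gave an adjusted p of 0.0846 for the latter.

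Of the receptor genes, *GID1B* was called lower in WUS-GR in both treatments and *GID1A* with TSA only. *GID1B* had 54.3, 56.6 and 56.5 CPM in Col-0 in DEX and 14.2, 18.9 and 13.3 CPM in WUS-GR in DEX. With TSA it had 35.2, 39.3 and 38.7 CPM in Col-0 and 18.7, 17.0 and 18.9 CPM in WUS-GR. The WUS-GR libraries lay far below those of Col-0 in both treatments. The WUS effect was a 3.55-fold fall without TSA (log2 -1.83, SE 0.12, adjusted p = 1.58e-06) and a 2.09-fold fall with TSA (log2 -1.07, SE 0.10, adjusted p = 2.09e-06). The 2 effects differed by 0.80 (log2, SE 0.16, adjusted p = 0.00135). In Col-0 *GID1B* fell with TSA by 0.56 (log2, SE 0.09, adjusted p = 1.79e-04). In WUS-GR the TSA effect was 0.21 (95% interval -0.06 to 0.49, adjusted p = 0.148), negative under scaling by library totals (-0.17) and called without WUS-GR DEX replicate 2 (0.38, adjusted p = 0.00709).

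*GID1A* had 14.7, 11.8 and 12.03 CPM in Col-0 in DEX and 14.5, 16.0 and 13 CPM in WUS-GR in DEX, which overlapped. With TSA it had 13.98, 11.3 and 11.1 CPM in Col-0 and 9.33, 7.86 and 7.20 CPM in WUS-GR, which did not. The WUS effect was 0.20 without TSA (log2, 95% interval -0.06 to 0.47, adjusted p = 0.171) and -0.58 with TSA (SE 0.14, adjusted p = 0.00464). Without Col-0 DEX replicate 1, the highest of its group, the former was 0.30 with an adjusted p of 0.0485. The 2 effects differed by -0.74 (SE 0.19, adjusted p = 0.00815), the reverse of the sign for *GID1B*. TSA lowered *GID1A* in WUS-GR by 0.85 (log2 -0.85, SE 0.13, adjusted p = 7.17e-05), while in Col-0 its effect was -0.08 (95% interval -0.38 to 0.22, adjusted p = 0.634).

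*GID1B* was the major of both receptor transcripts in Col-0, and in WUS-GR in DEX they were level. Per kb, *GID1A* made up 19.7 ± 2.33% of their sum in Col-0 in DEX, 25.5 ± 3.63% in Col-0 with TSA, 50.2 ± 2.50% in WUS-GR in DEX and 32.2 ± 2.97% in WUS-GR with TSA (SD, n = 3 each). Their sum was 34.1 ± 0.216, 24.8 ± 0.286, 15.2 ± 2.20 and 13.2 ± 0.810 CPM per kb in the same order. In the sum the genotypes did not overlap in either treatment. This sum leaves out the third receptor gene *GID1C*, so it does not stand for the whole family. Mean levels of *GID1C* were 14.47, 9.193, 21.36 and 9.002 CPM per kb in the same order. In WUS-GR in DEX, where *GID1C* was highest, its mean lay above that of the sum. The 250 bases before both starts (chr3:1430113-1430362 and chr3:23288993-23289242 of TAIR10.1, both plus strand) are printed to set the promoters of this unequal pair side by side, with TAAT on either strand in capitals.
GID1A: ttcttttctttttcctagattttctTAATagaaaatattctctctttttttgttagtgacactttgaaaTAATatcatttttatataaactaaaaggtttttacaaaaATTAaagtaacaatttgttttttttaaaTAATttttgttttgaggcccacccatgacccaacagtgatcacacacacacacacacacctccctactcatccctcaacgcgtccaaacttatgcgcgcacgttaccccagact
GID1B: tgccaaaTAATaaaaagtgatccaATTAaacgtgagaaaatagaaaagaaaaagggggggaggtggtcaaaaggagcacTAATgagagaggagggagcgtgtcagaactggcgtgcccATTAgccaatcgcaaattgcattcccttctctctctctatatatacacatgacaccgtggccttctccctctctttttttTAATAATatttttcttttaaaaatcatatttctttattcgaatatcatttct
*GID1A* held 4 and *GID1B* 6 matches. TAACAAA, a gibberellin response element of cereal amylase promoters, or its reverse complement TTTGTTA, stood once before *GID1A* and in no other of the 8 windows (16.1% of promoters). TGAC, the core that TGA and WRKY factors bind, or GTCA, stood in each of the 8 windows (75.5% of promoters). The G-box variant TCACGTGA was in none of them (0.474% of promoters), and the auxin response element TGTCTC, or GAGACA, was before *GA3OX1* only (10.9%). None of the 8 windows overlapped another annotated gene.

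**Figure D3:**
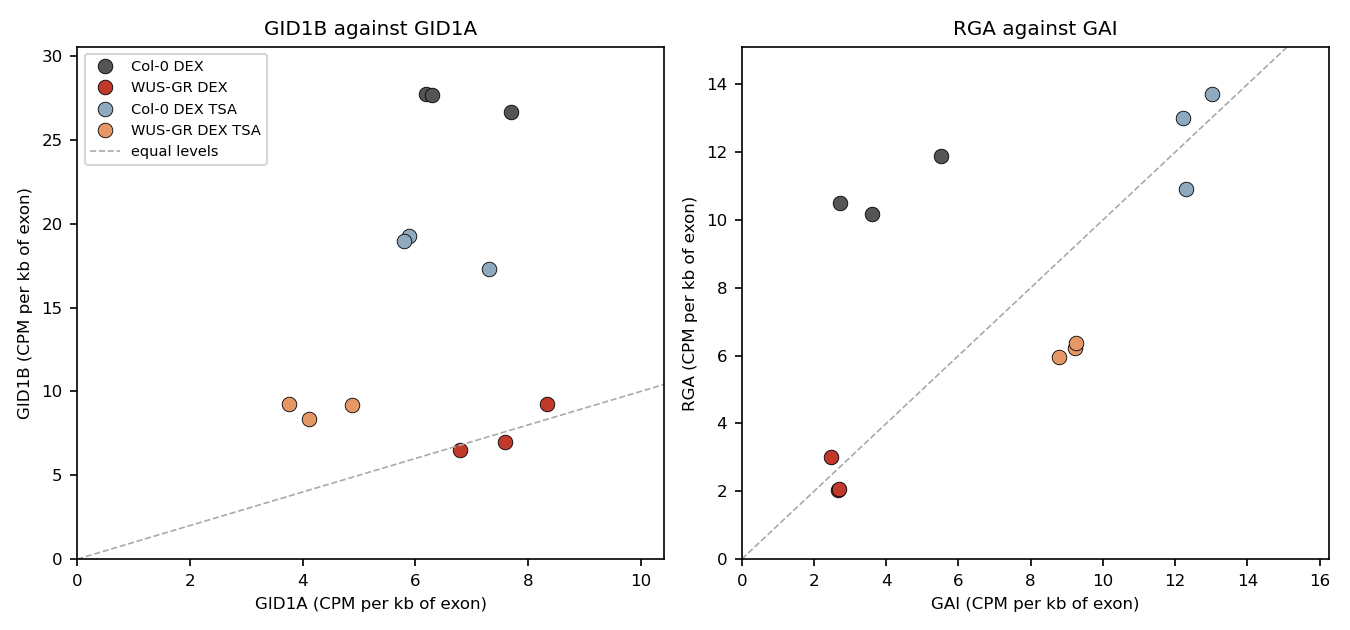
*GID1B* against *GID1A* (left) and *RGA* against *GAI* (right) in CPM per kb of exon, 1 point per library, with a dashed line of equal levels. The 3 WUS-GR DEX libraries lie near the line in both panels, while Col-0 in DEX lies far above it. *GID1A* is 19.7% of the sum of *GID1A* and *GID1B* in Col-0 in DEX and 50.2% in WUS-GR in DEX, and *GID1C* is not plotted.

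Of the DELLA genes, *RGA* was called lower in WUS-GR in both treatments and *GAI* with TSA only. *RGA* had 27.6, 23.6 and 24.3 CPM in Col-0 in DEX and 4.73, 6.97 and 4.78 CPM in WUS-GR in DEX. With TSA it had 31.9, 25.3 and 30.2 CPM in Col-0 and 14.5, 14.8 and 13.8 CPM in WUS-GR. The genotypes did not overlap in either treatment, and WUS-GR in DEX was lowest. The WUS effect was a 4.49-fold fall without TSA (log2 -2.17, SE 0.15, adjusted p = 1.79e-06) and a 2.04-fold fall with TSA (log2 -1.03, SE 0.11, adjusted p = 8.95e-06). The effects differed by 1.17 on the log2 scale (SE 0.19, adjusted p = 2.75e-04). In WUS-GR *RGA* rose 2.58-fold with TSA (log2 1.37, SE 0.15, adjusted p = 4.53e-06). In Col-0 the TSA effect was 0.22 (95% interval -0.03 to 0.46, adjusted p = 0.106), and it was called without Col-0 DEX TSA replicate 2 (0.30, adjusted p = 0.0390).

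*GAI* had 13.4, 8.80 and 6.61 CPM in Col-0 in DEX and 6.48, 6.01 and 6.54 CPM in WUS-GR in DEX. With TSA it had 31.7, 29.9 and 29.8 CPM in Col-0 and 22.4, 22.5 and 21.4 CPM in WUS-GR. The spread in Col-0 in DEX was the widest of its groups, and its lowest library lay just above those of WUS-GR. The WUS effect without TSA was -0.56 (log2, SE 0.22) and missed the threshold at an adjusted p of 0.0525. It passed without Col-0 DEX replicate 3 (-0.77, adjusted p = 0.00411), with DESeq2 (-0.58, 0.0293), without the filter (0.0337) and in 2 other fits. Without Col-0 DEX replicate 1, the highest of that group, the effect was -0.26 (adjusted p = 0.178), the weakest of all alternatives. With TSA the effect was -0.47 (SE 0.09, adjusted p = 8.58e-04), and the difference of the effects was 0.12 (95% interval -0.39 to 0.63, adjusted p = 0.740). TSA raised *GAI* 3.22-fold in Col-0 (log2 1.69, SE 0.19, adjusted p = 1.52e-05) and 3.44-fold in WUS-GR (log2 1.78, SE 0.10, adjusted p = 1.29e-08).

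*RGA* made up 73.9 ± 5.57% of the summed level per kb of *RGA* and *GAI* in Col-0 in DEX, 49.97 ± 2.55% in Col-0 with TSA, 47.2 ± 6.66% in WUS-GR in DEX and 40.5 ± 0.209% in WUS-GR with TSA (SD, n = 3 each). The sum was 14.8 ± 2.27, 25.1 ± 1.78, 4.97 ± 0.431 and 15.3 ± 0.464 CPM per kb in the same order. It was highest in Col-0 with TSA and lowest in WUS-GR in DEX, and these overlapped no other group. This sum leaves out the DELLA genes *RGL1*, *RGL2* and *RGL3*, so it does not stand for the whole family. *RGL3* stood at 5.12 ± 1.24, 10.65 ± 2.22, 13.2 ± 1.18 and 9.91 ± 0.96 CPM per kb in the same order.

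By annotation, no member overlapped another gene in TAIR10.1, and no stretch of 50 bases of their exons recurred exactly elsewhere in the genome. Exact matches of that length thus belong to single members even between paralogs, but read length and mismatches were not taken into account. *GAI* and *GA3OX1* lie on chromosome 1 from 5148982 to 5151415 and from 5344388 to 5346342. *RGA* lies on chromosome 2 from 255247 to 257568, and *GID1A* and *GID1B* on chromosome 3 from 1430363 to 1432844 and from 23289243 to 23291486. *GA2OX6* (486800 to 489651), *GA2OX2* (10537457 to 10540044) and *GA2OX1* (29511561 to 29513100) also lie on chromosome 1, *GA20OX1* on chromosome 4 (12990851 to 12992585) and *GA20OX2* on chromosome 5 (21055179 to 21056881). The DELLA genes had 1 exon each, *GA2OX1* had 3 and the other members had 2.

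The profile over all 12 libraries, as log2 CPM, was compared between the 8 members with enough counts and 17915 genes. For *RGA* the most alike was *BIN2*, a kinase gene of brassinosteroid signaling (Pearson r = 0.993), for *GID1B* *TMAC2* (0.991), for *GAI* AT1G56020 (0.995), for *GID1A* *RR2*, a cytokinin response regulator gene (0.952), for *GA2OX6* AT4G23250 (0.947), for *GA2OX2* AT3G13510 (0.984), for *GA3OX1* AT3G08670 (0.981) and for *GA20OX2* AT3G06750 (0.940). Among the members themselves r was highest between *GA2OX2* and *GAI* (0.952) and lowest between *GID1A* and *GAI* (-0.517). These are descriptions over 12 libraries in 4 groups, which share genotype, treatment and depth.

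The rest of the pathway was read from 52 genes in 7 lists, of which 22 never had more than 12 counts in a library. In DEX 29 were tested and 18 called, 5 higher and 13 lower in WUS-GR (median log2 fold change -0.06), and with TSA 29 were tested and 16 called, 3 higher and 13 lower (median -0.41). The shares among all genes for these comparisons are those given above, 57.9% and 54.8%.

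Of the genes of early synthesis, 4 of 4 tested were called without TSA. *GA2*, the ent-kaurene synthase gene, was higher (log2 1.08, adjusted p = 0.00232), and *KAO1* (AT1G05160) was higher by 0.31. The ent-kaurenoic acid oxidase gene *KAO2* fell by 1.48 (adjusted p = 6.52e-06) and the ent-kaurene oxidase gene *GA3* fell by 0.31. *KAO2* went from 20.02 ± 2.57 to 7.04 ± 0.779 CPM (SD, n = 3 each). In DEX the call of *GA3* was lost without Col-0 replicate 3 (-0.21) or WUS-GR replicate 1 (-0.32) or 3 (-0.26), and that of *KAO1* without replicate 3 of either genotype (0.26 and 0.25). With TSA *KAO2* (-1.47) and *GA3* (-0.34) were called of 5 tested. Among the other 20-oxidases and 3-oxidases only *GA20OX5* had enough reads, with 53 to 174 counts in Col-0 in DEX, 3 to 12 in WUS-GR in DEX, and at most 4 in any library with TSA. It fell by 3.95 with WUS in DEX (log2, adjusted p = 4.53e-05) and by 5.57 with TSA in Col-0 (adjusted p = 4.05e-06), the latter by 6.18 without Col-0 DEX TSA replicate 2. *CYP714A1*, for a P450 enzyme that inactivates gibberellins, was the only further inactivation gene called, and it was lower in all 4 comparisons: by 1.57 and 1.86 (log2) with WUS, and with TSA by 2.77 in Col-0 and 3.05 in WUS-GR. Its counts were 164 to 186 in Col-0 and 49 to 79 in WUS-GR in DEX. With TSA they were 18 to 31 in Col-0 and only 3 to 7 in WUS-GR. The falls of 1.86 and 3.05 rest on that last group, and *CYP714A1* passed the filter there through the other group.

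Of the other signaling genes, 5 of 9 tested were called in DEX. The third receptor gene *GID1C* rose by 0.59 (adjusted p = 8.84e-04) and the DELLA gene *RGL3* by 1.41 (adjusted p = 3.94e-05), whereas *SPY*, for the O-fucosyltransferase that modifies DELLA proteins, fell by 1.12 (adjusted p = 1.84e-06), *IDD2* fell by 0.60 and *IDD1* by 0.33 (log2). *RGL3* went from 11.6 ± 2.80 to 29.9 ± 2.67 CPM, and *GID1C* from 26.7 ± 3.89 to 39.4 ± 1.67 CPM (SD, n = 3 each). So within both families members were called in opposite directions, *GID1B* lower and *GID1C* higher, *RGA* lower and *RGL3* higher. With TSA no signaling gene was called higher, and *RGL1* (-1.31), *SPY* (-0.82), *SCL3* (-0.52) and *IDD2* (-0.48) were called lower. The call of *IDD1* in DEX was lost without Col-0 replicate 1 or 2 or WUS-GR replicate 2 or 3 (-0.33 to -0.27, adjusted p 0.0509 to 0.0590), and that of *IDD2* with TSA without Col-0 replicate 3 (-0.42) or WUS-GR replicate 1 (-0.46). The WUS effect differed with TSA for *RGL1* (-1.51), *RGL3* (-1.49), *SCL3* (-0.74) and *GID1C* (-0.59).

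The *GASA* family codes for small secreted peptides, several of them raised by gibberellin. In DEX 4 of 6 tested were lower and none higher in WUS-GR: *GASA1* (log2 -2.13, adjusted p = 1.19e-06), AT2G14900 (-1.18), AT1G22690 (-1.12) and *GASA4* (-0.72). *GASA1*, the most abundant, stood at 657 ± 124 CPM (SD, n = 3) in Col-0 against 148 ± 11.4 CPM (SD, n = 3) in WUS-GR. With TSA 4 were lower, *GASA1* (-2.31), *GASA4* (-0.74), AT2G14900 (-0.73) and AT5G14920 (-0.50), and AT1G22690 was higher (1.37). With TSA, *GASA4* and AT2G14900 both lost their calls without Col-0 replicate 1 (-0.38 and -0.26), WUS-GR replicate 1 (-0.75 and -0.66) or WUS-GR replicate 2 (-0.52 and -0.61). For AT1G22690 the WUS effects differed by 2.53 (adjusted p = 2.77e-04). Of genes raised by DELLA proteins, AT5G50915 was higher in WUS-GR in both treatments (2.32 and 1.38), *WRKY27* lower in DEX (-1.47) and *XERICO* higher with TSA (0.63), out of 3 tested. In DEX AT5G50915 had 4 to 5 counts in Col-0 and 18 to 35 in WUS-GR. With TSA it had 6 to 18 and 22 to 30. In both treatments it passed the filter through its WUS-GR libraries, where it was higher. Of 4 class I *KNOX* genes, *KNAT2* was lower in both treatments (-1.69 and -1.71) and *STM* with TSA (-0.86), all log2 values.

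With TSA in Col-0 20 of 30 list genes tested were called, 14 higher and 6 lower, and in WUS-GR 20 of 29, 11 higher and 9 lower, beside the 64.2% and 73.7% of all genes above. *KNAT2* and *KNAT6* rose in both genotypes, by 2.51 and 1.73 (log2) in Col-0 and by 2.50 and 2.03 in WUS-GR, *STM* rose in Col-0 (1.32) and *KNAT1* in WUS-GR (0.99). *GA1*, for the first enzyme of the pathway, rose by 2.08 and 1.14 in Col-0 and WUS-GR, *GA3* fell by 0.45 and 0.46, and *GA2* rose in Col-0 (0.88) and fell by 0.70 in WUS-GR. Counts of *GA1* were 2 to 11 in Col-0 in DEX and 25 to 31 with TSA. In WUS-GR they were 7 to 24 and 16 to 25. In both genotypes *GA1* passed the filter through its libraries with TSA, where it was higher. *GID1C* fell by 0.65 and 1.26, and the largest rises among the signaling genes were those of *RGL3* in Col-0 (1.07) and *IDD1* in WUS-GR (0.76). *XERICO* rose by 1.55 and 2.17 and *GASA6* by 1.94 and 1.32, *WRKY27* fell by 2.37 and 1.30, and AT1G22690 fell by 1.32 in Col-0 and rose by 1.17 in WUS-GR. *GASA6* in Col-0 rested in part on 1 library, Col-0 DEX TSA replicate 1, at 11.3 CPM against 3.17 and 3.77 CPM in the others, and without it rose by 1.14 (adjusted p = 0.00238). *GA2* in Col-0 was no longer called without the same library (0.66, adjusted p = 0.0684). In WUS-GR, *GA1* was not called without DEX replicate 1 (0.94) or 3 (0.83) or TSA replicate 1 (1.16) or 2 (1.09) and stood at 1.85 without DEX replicate 2. *WRKY27* there was not called without DEX replicate 2 (-1.07) or TSA replicate 2 (-1.08) or 3 (-0.99) and stood at -2.07 without TSA replicate 1.

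For the difference of the WUS effects 9 of 31 list genes were called, beside 31.0% of all genes. AT1G22690 (2.53) and *XERICO* (0.65) were called upward. *GA2* (-1.55), *RGL1*, *RGL3*, *SCL3*, *GID1C*, AT5G14920 (-0.45) and *KAO1* (-0.43) were called downward. The call of *KAO1* was lost without Col-0 DEX replicate 1 or 3, Col-0 DEX TSA replicate 1 or 3, WUS-GR DEX replicate 3 or WUS-GR DEX TSA replicate 1 or 2 (-0.46 to -0.37), and that of AT5G14920 without Col-0 DEX replicate 2 (-0.39). No list gene called in any comparison turned its sign under the other scalings. By library totals the call was lost for *IDD1* with WUS in DEX and with TSA in Col-0, for *GASA4* with TSA in both genotypes, for *GA1* and AT2G14900 with TSA in WUS-GR, and for *XERICO* in the difference.

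**Figure D4:**
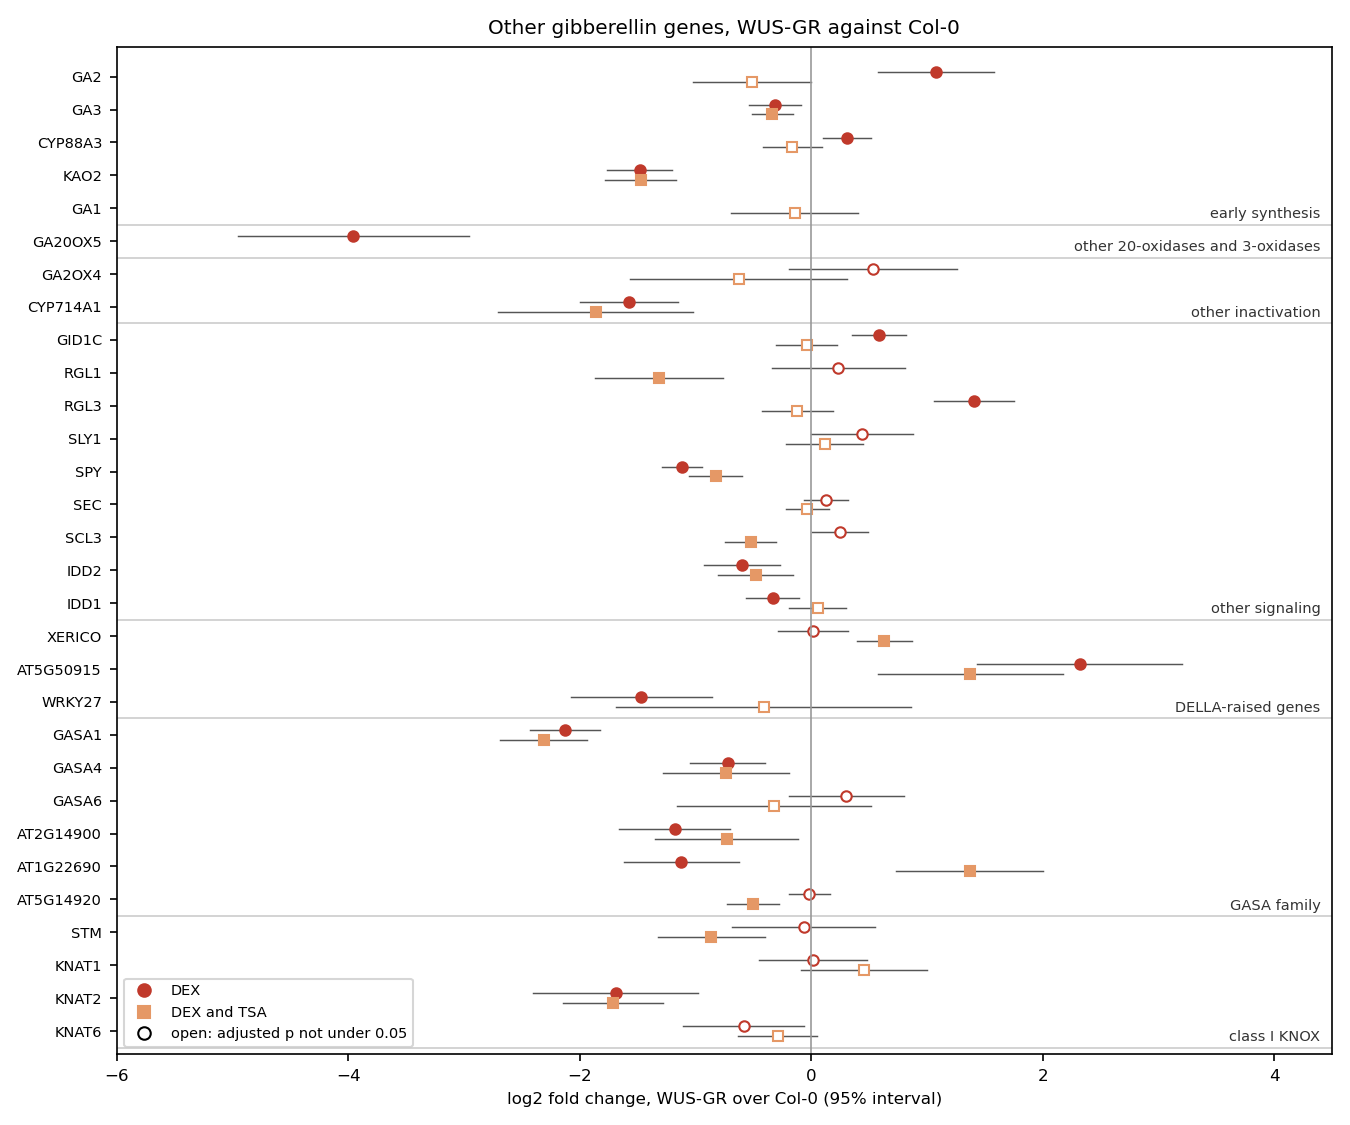
Log2 fold changes of WUS-GR over Col-0 with 95% intervals for the tested genes of the 7 lists, in DEX (circles) and in DEX and TSA (squares); open symbols have an adjusted p of 0.05 or more, and CYP88A3 is *KAO1*. *GASA1* and *KAO2* lie left of 0 in both treatments, at -2.13 and -2.31 and at -1.48 and -1.47, and *RGL3* lies at 1.41 in DEX only.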

How the data were processed

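The authors aligned the reads, from directional poly(A) libraries, to TAIR10 with HISAT2, obtained gene counts from featureCounts and deposited them raw, 1 column per library, without normalization. The strand setting of the counting is not given in the sources used here. Each column matched a labelled sample. Of the counts, 14810658 to 21578662 per library, those of 17915 genes passed the filter for the levels (TMM factors 0.842 to 1.13). edgeR 4.0.16 (R 4.3.3; TMM, filterByExpr with its minimum count of 10, quasi-likelihood F-test, two-sided, Benjamini-Hochberg, threshold 0.05) was fitted to the 6 libraries of each comparison, and to all 12 with genotype, treatment and their interaction for the difference of effects. The study's own fits used DESeq2. The procedure was tested on simulated data. Likeness used log2 CPM with a prior count of 2.

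The 10 genes and the lists were chosen with earlier results of these data known. All 10 are named; of the lists, the largest rise and fall per list and comparison and the genes behind counts of 5 or fewer are named. Positions, exonic lengths and the 250 bases before the starts of 8 members (those of the other two are not reported here) come from the RefSeq TAIR10.1 assembly, since the table holds identifiers only; 32548 identifiers matched it, all 10 members among them. Alternatives were DESeq2 size factors, library totals, no filter or a stricter one, the replicate number as a block, DESeq2 1.42.0, 1 fit of all libraries, and leaving out each library.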

Additional observations from a re-analysis of the deposited data

Results flagged for a closer look

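For 6 of the 8 members tested, the WUS effect with TSA differed from that without TSA in a test of the difference itself, beside 31.0% of all 17915 genes tested. The difference of the log2 fold changes was 3.28 for *GA20OX2*, 1.71 for *GA2OX6*, 1.17 for *RGA* and 0.80 for *GID1B*, where the fall in WUS-GR was smaller or not detectable with TSA, and -1.01 for *GA2OX2* and -0.74 for *GID1A*, where a fall was called with TSA only. All 6 were called in each of the alternative fits that tested them, with adjusted p up to 0.0292 from edgeR or DESeq2. The value for *GA20OX2* rests on at most 24 counts per library. TMM factors were lowest in WUS-GR with TSA, and their part in these differences was not tested beyond the scaling alternatives.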

How the results depend on the processing

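Among the fold changes of members in alternative fits, 490 kept their sign and their side of the threshold, 12 gained a call, 14 lost one and 12 turned their sign. None of those that turned had been called. By library totals these were *GA20OX2* for the WUS effect with TSA (-0.19), *GID1B* for TSA in WUS-GR (-0.17), and the difference of effects of *GA3OX1* (-0.031) and *GAI* (-0.20). Leaving out 1 library at a time gave -0.27 to 0.079 for *GA2OX2* and the WUS effect in DEX (above 0 without Col-0 DEX replicate 1 or WUS-GR DEX replicate 3), -0.37 to 0.26 for *GA20OX2* and the WUS effect with TSA (below 0 without replicate 3 of either TSA group), -0.20 to 0.018 for *GID1A* and TSA in Col-0 (above 0 without Col-0 DEX replicate 1), and, for the difference of effects, -0.11 to 0.60 for *GA3OX1* (below 0 without Col-0 DEX replicate 3 or WUS-GR DEX replicate 3) and -0.18 to 0.34 for *GAI* (below 0 without Col-0 DEX replicate 1). The cause was not tested. The lost calls concerned *GA3OX1* (WUS effect with TSA) and *GA20OX2* (TSA in Col-0), both at low counts. Members called ranged over all fits from 3 to 6 for WUS in DEX and from 5 to 9 with TSA, where the most came without the filter. That fit added *GA20OX1* and *GA2OX6* upward and *GA2OX1* downward. Calls among all genes moved too, from 8617 to 10175 over the fits for WUS in DEX. With TSA they were 9574 without the filter and 9253 in the main fit. Same-numbered replicates of different groups correlated in their deviations by -0.27 to 0.12, with 2 of 18 pairs over 0.1. No pairing by number was seen, but deviations within such small groups cannot exclude it. With the replicate number as a block, 4, 6, 5, 6 and 6 members were called for WUS in DEX, WUS with TSA, TSA in Col-0, TSA in WUS-GR and the difference, and the call lost was that of *GA20OX2* (-0.85, adjusted p = 0.0531). Among all genes the block gave 9155 calls for WUS in DEX, against 10002 without it, and 9551 for WUS with TSA, against 9253. Depth limits *GA20OX1*, *GA20OX2*, *GA3OX1* and *GA2OX1*, with at most 46 counts in any library.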
